A study of Caenorhabditis elegans with 21 samples.

Results

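The comparison described here is the removal of egl-9 from worms that already lack hif-1. The members are the 6 libraries whose titles name the hif-1 mutant or the egl-9 hif-1 double mutant, 3 of each, out of 21 libraries of 7 genotypes in the series. All genes were examined, and 12974 of 21752 genes passed the filter on low counts and were tested. The control animals carried hif-1(ia4). The double mutants carried the same hif-1(ia4) allele together with egl-9(sa307), so hif-1 is mutated in every library of the comparison. For reading these changes beside the same removal where hif-1 is intact, 4 more genotypes were used with 3 libraries each, namely wild-type N2, egl-9(sa307), vhl-1(ok161) and egl-9(sa307);vhl-1(ok161). Every library was made with the SmartSeq2 protocol from whole, synchronized young adults that showed no eggs, at 30 to 50 animals per sample. The 6 libraries held 8566763 to 10089836 estimated counts each.

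EGL-9 is the prolyl hydroxylase that uses oxygen to mark the transcription factor HIF-1, and VHL-1 recognises the mark and directs HIF-1 to destruction. When egl-9 is lost in animals with a working hif-1 gene, HIF-1 accumulates and turns on hypoxia genes even in air. Setting egl-9 hif-1 animals against hif-1 animals asks what the loss of egl-9 changes when that response cannot occur.

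The mutated genes were read first, as a check of the labels. The hif-1 transcript measured 13.3, 21.1 and 18.9 CPM (counts scaled to library size) in the 3 hif-1 libraries and 13.4, 13.7 and 14.1 CPM in the 3 egl-9 hif-1 libraries. Both groups lay far below N2, at 132, 105 and 109.5 CPM. The egl-9 transcript measured 32.1, 29.7 and 30.1 CPM in hif-1 and 21.9, 21.3 and 22.8 CPM in egl-9 hif-1. Here the groups did not overlap and the double mutants were lower, with a log2 fold change of -0.48 ± 0.10 (standard error) by edgeR's quasi-likelihood test (Benjamini-Hochberg adjusted p = 0.00227). The transcript was therefore present in both groups, and its level does not by itself show which libraries carry sa307. In the egl-9 libraries, where hif-1 is intact, it stood at 89.6, 89.2 and 104.2 CPM.

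Removing egl-9 from hif-1 worms changed 3965 of the 12974 genes tested, which is 30.6% of them. A changed gene is here 1 with an adjusted p below 0.05 in that test, which was fitted over all 21 libraries with n = 3 per genotype. Of the changed genes, 1664 rose (12.8% of all genes tested) and 2301 fell (17.7%). The changes were mostly small, with a median of 0.42 on the log2 scale among genes that rose and -0.80 among those that fell. A change of 2-fold or more was reached by 156 of the genes that rose and by 760 of those that fell. The 3 libraries of 1 genotype lay wholly above the 3 of the other for 43.7% of all genes tested. Among the changed genes alone that share was 94.75%. Where the groups of a changed gene are called separate below, that is therefore no further evidence. The median gene of all those tested moved by -0.08. On the first 2 principal components of all libraries, the egl-9 hif-1 libraries lay between -45.9 and -49.2 and between 8.38 and 13.05. The hif-1 libraries lay between -29.3 and -53.7 on the first and between -27.8 and -42.8 on the second, with no overlap on the latter. The N2 libraries lay between -39.3 and -52.5 and between -16.3 and 10.88. Set against those N2 libraries in the same fit, 1870 of the 12974 genes were changed in hif-1 and 851 in egl-9 hif-1. By that count the double mutants were nearer to N2 than the hif-1 libraries were. Lists of genes are described below by how many tested members rose or fell and by their median change, with no test of the list. Where a list shows no member rising or none falling by edgeR, DESeq2 and an unadjusted p below 0.05 also gave 0, except that each found 1 raised molting gene, DESeq2 found 1 raised ribosomal gene, and the unadjusted p gave 1 raised HIF-1 target and 1 raised neuronal gene. Since nothing in the labels ties the libraries to separate cultures, the spread behind every p-value may be technical.

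The largest rises were in heat-inducible chaperones, which hold or refold damaged proteins. Of the 12 raised genes with the largest change among well-expressed genes that separated the groups, 8 were small heat shock proteins of the hsp-16 family or members of the hsp-70 family. Since separate groups were part of the rule that named these 12, their separation is no further evidence. The stress-inducible gene hsp-70 measured 1.22, 0.495 and 0.248 CPM in hif-1 and 68.2, 54.4 and 71.2 CPM in egl-9 hif-1. Every double-mutant library was thus far above every hif-1 library, a log2 fold change of 6.52 ± 1.45 (edgeR's adjusted p = 0.00264). For the small heat shock gene hsp-16.41, the hif-1 libraries held 2.54, 1.11 and 2.11 CPM. The double mutants held 97.5, 126 and 147 CPM, which gave 5.97 ± 1.36 (edgeR's adjusted p = 0.0032). Its relatives moved alike. The change was 5.75 ± 1.196 for hsp-16.1 and 5.43 ± 1.28 for hsp-16.2. The symbol hsp-16.48 belongs to a pair of gene identifiers with equal counts in these libraries, each with a change of 5.20 ± 1.15. The members of this family are near-identical copies, so how their reads divide between them is uncertain. The same holds for the hsp-70 relatives F44E5.4 and F44E5.5. F44E5.4 went from 4.56, 0 and 8.57 CPM to 114, 83.5 and 70.1 CPM, a change of 4.34 ± 1.05 (edgeR's adjusted p = 0.00476). In hif-1 replicate 2 F44E5.4 was listed at 0 while F44E5.5 stood at 4.96 CPM, and the reverse held in the other two hif-1 libraries. The call of F44E5.5 was lost without any of the 6 libraries but hif-1 replicate 2.

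Over the whole list of heat shock genes and chaperones, 11 of 20 tested members rose, 1 fell, and the median change was 0.41. The share that rose was 55%, beside 12.8% of all genes. The cytosolic chaperone gene hsp-90, counted with the hif-1 pathway, rose from 1842, 1994 and 1951 CPM to 3392, 3172 and 2901 CPM, a change of 0.71 ± 0.14 (edgeR's adjusted p = 0.00147). The member that fell was hsp-6, the HSP70 of mitochondria. It measured 366, 356 and 373 CPM in hif-1 and 198, 203 and 215 CPM in egl-9 hif-1. The groups were tight and well apart, at -0.83 ± 0.07 (edgeR's adjusted p = 4.41e-07). N2 held hsp-6 at 200.1 ± 20.9 CPM (SD, n = 3), near the double mutant.

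The N2 libraries differed among themselves for these genes. N2 measured 1.97, 126 and 139 CPM of hsp-70 and 0.517, 72.9 and 172 CPM of hsp-16.41. N2 replicate 1 was therefore near the hif-1 libraries, whereas N2 replicates 2 and 3 were near or above the double mutants. The mean log2 CPM of the whole list, set to 0 at the N2 mean, was -1.57, 0.64 and 0.93 in the N2 libraries. It lay between -2.06 and -1.89 in hif-1 and between 0.24 and 0.32 in egl-9 hif-1. The spread within one genotype can therefore be as wide as the difference between the genotypes compared here. What set N2 replicate 1 apart, or put the libraries of some genotypes in order of their number, was not tested.

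**Figure D1:**
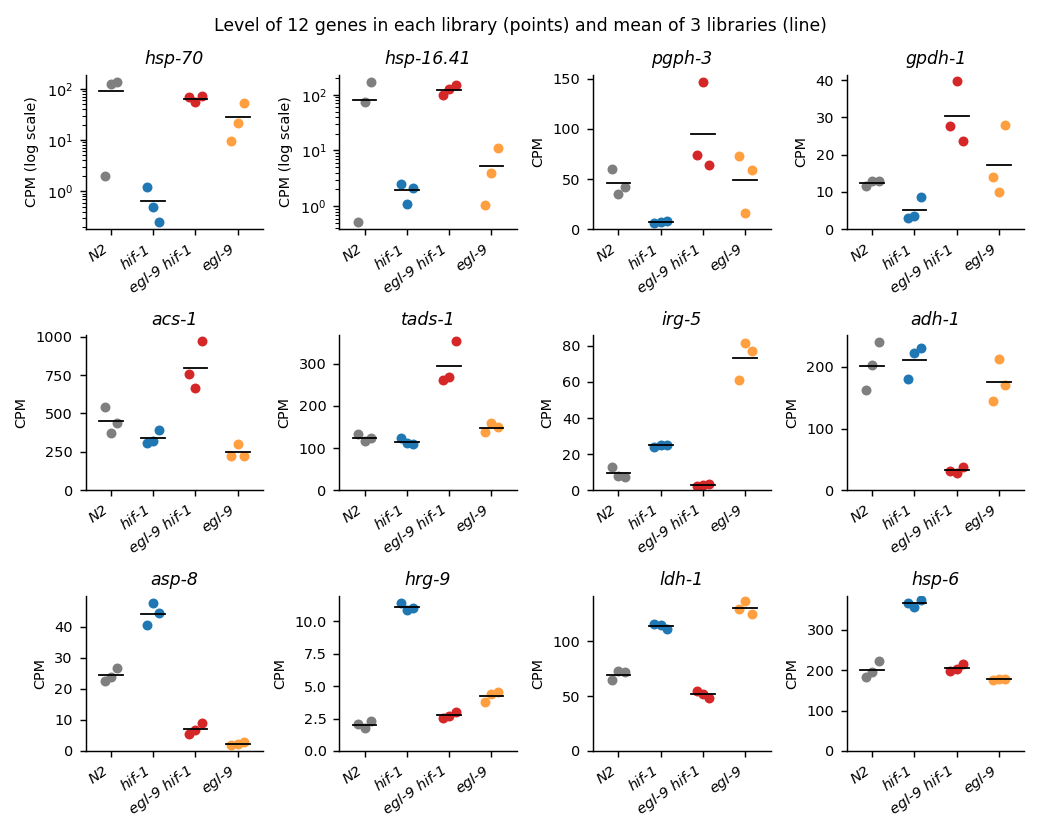
Level in CPM of 12 genes in each library of the N2, hif-1, double-mutant and egl-9 worms (points), with the mean of 3 libraries as a line; hsp-70 and hsp-16.41 have a log axis and the others start at 0. The egl-9 hif-1 libraries lie above all hif-1 libraries in the first 6 panels and below them in the last 6, and N2 replicate 1 is low for hsp-70 and hsp-16.41. Separate groups were part of the rule that named the genes with the largest changes.

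Outside the chaperones, the leading rises were pgph-3, Y69A2AR.12, gpdh-1 and fig-1. The gene pgph-3, named as a phosphoglycolate phosphatase homologue, measured 6.39, 6.81 and 7.83 CPM in hif-1 and 74.1, 147 and 63.6 CPM in egl-9 hif-1. That is a rise of 3.76 ± 0.48 (edgeR's adjusted p = 3.69e-05). The glycerol-3-phosphate dehydrogenase gene gpdh-1, which makes glycerol under osmotic stress, went from 3.14, 3.59 and 8.7 CPM to 27.8, 39.7 and 23.8 CPM. That is a change of 2.58 ± 0.52 (edgeR's adjusted p = 0.00131), and its N2 level was 12.4 ± 0.809 CPM (SD, n = 3). Expression of fig-1, a gene of the glia that wrap sensory endings, rose from 3.35, 3.22 and 2.98 CPM to 14.2, 10.19 and 13.9 CPM, a change of 1.99 ± 0.25. The change of Y69A2AR.12 was 3.06 ± 0.48.

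The smallest p-values among genes that rose belonged to tads-1, sna-1, pir-1 and farl-11. Levels of tads-1 were 123, 111 and 109 CPM in hif-1 and 261, 269 and 355 CPM in egl-9 hif-1. The double mutants stood clear of hif-1, and also of N2 at 125 ± 7.57 CPM and of egl-9 at 149 ± 11.18 CPM (SD, n = 3 each). The change was 1.36 ± 0.10 (edgeR's adjusted p = 1.10e-07). The RNA phosphatase gene pir-1, which acts in small RNA pathways, rose by 0.73 ± 0.07, from 58.3, 56.9 and 55.2 CPM to 88.9, 98.4 and 95.9 CPM. The changes of sna-1 and farl-11 were 0.68 ± 0.06 and 0.58 ± 0.06.

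Of the 12 largest falls, chosen by the same rule as the rises, 8 were 6 collagens, grl-16 and Y47D7A.15, which are described below. The other 4 were irg-5, adh-1, T08B6.9 and asp-8. The infection response gene irg-5 measured 24.04, 25.3 and 25.2 CPM in hif-1 and 2.4, 2.62 and 3.63 CPM in egl-9 hif-1. No double-mutant library came near a hif-1 library, and the change was -3.10 ± 0.23 (edgeR's adjusted p = 1.19e-07). The alcohol dehydrogenase gene adh-1 went from 181, 222 and 230.3 CPM to 31.1, 28.04 and 37.1 CPM, a change of -2.72 ± 0.29 (edgeR's adjusted p = 7.86e-06). For adh-1 the double mutant stood apart from every other genotype shown, since N2 held 202 ± 38.8 CPM and egl-9 held 176 ± 34.1 CPM (SD, n = 3 each). The aspartyl protease gene asp-8 fell from 40.5, 47.6 and 44.5 CPM to 5.63, 6.62 and 9.07 CPM, a change of -2.63 ± 0.17 (edgeR's adjusted p = 2.28e-08). T08B6.9 had 56.8, 81.5 and 95.2 CPM and 8.62, 11.1 and 16.22 CPM in the same order, a change of -2.69 ± 0.34.

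Established targets of HIF-1 did not rise when egl-9 was removed in the absence of hif-1. Of 17 tested members, 0 rose and 4 fell by edgeR, and the median change was -0.34. The share that fell was 23.5%, beside 17.7% of all genes. The count of those that fell was 1 or 2 when a library was left out, and at an unadjusted p below 0.05 it was 1 that rose and 5 that fell. In egl-9 against N2, where 25.8% of all genes were changed, 15 of the same 17 rose and 2 fell, with a median of 3.65. In egl-9;vhl-1 against vhl-1, where 17.2% of all genes were changed, 12 rose and 1 fell, with a median of 1.09. Levels of the nuclear receptor gene nhr-57, a standard reporter of HIF-1 activity, were 5.38, 4.83 and 5.09 CPM in hif-1 and 3.71, 3.36 and 3.73 CPM in egl-9 hif-1. In egl-9 it reached 427 ± 70.8 CPM against 6.71 ± 1.33 CPM in N2 (SD, n = 3 each). Its change was -0.50 ± 0.17 without hif-1 (edgeR's adjusted p = 0.0305) and 5.98 ± 0.14 with it. The methyltransferase gene rips-1 moved by -0.38 ± 0.14 without hif-1 and by 6.77 ± 0.14 with it. The call of nhr-57 without hif-1 was lost on leaving out any 1 of the 6 libraries, and that of rips-1 on leaving out any but egl-9 hif-1 replicate 2. Both calls were also lost by DESeq2 and with only the genotypes compared. For the flavin monooxygenase gene fmo-2, 20 counts were found over the 3 hif-1 libraries and 0 over the 3 double mutants. Taking 3 counts over the group as the floor, that is at least 6.99-fold lower. The bound was 4.55 to 9.63 when a library was left out, and the call of fmo-2 was lost without any library but hif-1 replicate 2. The other changed target was egl-9 itself.

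Genes of the HIF-1 pathway itself gave small changes, 4 up and 3 down among 11 tested, or 2 up when egl-9 hif-1 replicate 2, hif-1 replicate 2 or hif-1 replicate 3 was left out. With all libraries that is 36.4% up and 27.3% down, beside 12.8% and 17.7% of all genes. The 3 that fell were cysl-1 and the mutated genes egl-9 and hif-1, and the call of hif-1 was lost by DESeq2 and without any of the 6 libraries but hif-1 replicate 1. The cullin gene cul-2, part of the ubiquitin ligase that contains VHL-1, rose from 89.1, 104.3 and 105 CPM to 127, 118 and 144 CPM, a change of 0.38 ± 0.08. The sulfhydrylase-like gene cysl-1, an inhibitor of EGL-9, fell from 27.1, 23.5 and 24.4 CPM to 15.9, 18.9 and 17.6 CPM, a change of -0.52 ± 0.13 (edgeR's adjusted p = 0.00623). With hif-1 present the same gene moved by 2.56 ± 0.13.

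Sulfide and cysteine metabolism had 2 members that rose and 5 that fell among 21 tested, with a median of -0.21. Together that is 33.3% of the list, close to the 30.6% of all genes. The number that fell was 3 without hif-1 replicate 2, hif-1 replicate 3 or egl-9 hif-1 replicate 3. The count of those that rose was 0 to 2 when a library was left out, with 0 without hif-1 replicate 1. The cystathionine gamma-lyase gene cth-1 fell from 84.3, 86.8 and 119.9 CPM to 40.7, 44.1 and 56.8 CPM, a change of -1.04 ± 0.25 (edgeR's adjusted p = 0.00498). The cystathionine beta-synthase gene cbs-1 fell by 0.70 ± 0.17, and the persulfide dioxygenase gene ethe-1 rose by 0.41 ± 0.12, a call lost without hif-1 replicate 1. In the methionine cycle and the linked propionate pathways, 5 of 17 rose and 3 fell, or 3 rose when egl-9 hif-1 replicate 1 or 2 or hif-1 replicate 1 or 2 was left out. The 5 that rose are 29.4% of the list, beside 12.8% of all genes. The share that fell, 17.65%, is close to the 17.7% of all genes. The methionine synthase gene metr-1 rose from 199, 202 and 216 CPM to 303, 294 and 282 CPM, a change of 0.51 ± 0.09 (edgeR's adjusted p = 3.74e-04). The acyl-CoA dehydrogenase gene acdh-1, which breaks down propionate by a shunt, rose from 761, 754 and 766 CPM to 1486, 1554 and 1444 CPM, a change of 0.97 ± 0.17 (edgeR's adjusted p = 5.40e-04). In the same list pcca-1, a propionyl-CoA carboxylase subunit, fell by 0.40 ± 0.10. The acdh-1 level of the double mutant was close to that of N2, at 1567 ± 137 CPM (SD, n = 3).

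No tested iron or heme gene rose. Among 11 iron homeostasis genes 0 rose and 4 fell, which is 36.4% beside 17.7% of all genes. The count of those that fell was 2 when egl-9 hif-1 replicate 2, egl-9 hif-1 replicate 3 or hif-1 replicate 3 was left out. The iron exporter gene fpn-1.2 went from 12.7, 11.5 and 13.2 CPM to 5.87, 3.99 and 8.54 CPM, a change of -1.02 ± 0.28 (edgeR's adjusted p = 0.0103), and the call was lost without egl-9 hif-1 replicate 2. The iron-responsive aconitase gene aco-1 fell by 0.37 ± 0.09. Among 8 heme genes 0 rose and 2 fell, which is 25% beside 17.7% of all genes, and the count was 1 without any 1 of the 6 libraries. The heme-responsive gene hrg-9 fell from 11.5, 10.9 and 11.1 CPM to 2.52, 2.73 and 2.99 CPM, a change of -2.01 ± 0.16 (edgeR's adjusted p = 1.89e-07). N2 held 2.04 ± 0.265 CPM (SD, n = 3), slightly below the double mutant. The heme exporter gene mrp-5 fell by 0.32 ± 0.12, a call that was lost under each of those left-out libraries.

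Genes of energy metabolism fell on several lists, by small amounts. In the TCA cycle 12 of 21 genes fell, which is 57.1% beside 17.7% of all genes, with a median of -0.28. The citrate synthase gene cts-1 went from 848, 921 and 961 CPM to 744, 708 and 624 CPM, a change of -0.40 ± 0.08 (edgeR's adjusted p = 0.0017). The succinyl-CoA ligase gene suca-1 fell by 0.44 ± 0.08 and the mitochondrial aconitase gene aco-2 fell by 0.35 ± 0.06. In the respiratory chain with ATP synthase 19 of 37 fell (51.35%, beside 17.7% of all genes) and 1 rose (2.7%, beside 12.8%). The ATP synthase subunit gene asb-2 fell from 257, 259.8 and 284 CPM to 189, 173 and 157 CPM, a change of -0.63 ± 0.09 (edgeR's adjusted p = 6.23e-05), and gas-1, a complex I subunit, fell by 0.54 ± 0.09. The count of respiratory genes that fell was 4 without egl-9 hif-1 replicate 3 and 9 without hif-1 replicate 3.

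In glycolysis 9 of 19 genes fell (47.4%, beside 17.7% of all genes) and 4 rose (21.05%, beside 12.8%). The lactate dehydrogenase gene ldh-1 measured 116, 114.8 and 111 CPM in hif-1 and 54.3, 52.4 and 48.5 CPM in egl-9 hif-1. All double-mutant libraries were below all hif-1 libraries, at -1.14 ± 0.07 (edgeR's adjusted p = 2.21e-08). The aldolase gene aldo-1 fell from 183, 218 and 206 CPM to 121, 118 and 118.8 CPM, a change of -0.76 ± 0.08. Both genes went the other way with hif-1 present, by 0.90 ± 0.07 for ldh-1 and 1.202 ± 0.08 for aldo-1 in egl-9 against N2. The glycolysis count of genes that fell was 3 without egl-9 hif-1 replicate 3 or hif-1 replicate 3 and 5 without hif-1 replicate 2, and that of genes that rose was 1 without egl-9 hif-1 replicate 1. Of the 2 glyceraldehyde-3-phosphate dehydrogenase genes with the smallest p-values, gpd-1 rose by 0.50 ± 0.12 and gpd-2 fell by 0.46 ± 0.11.

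Genes of fat metabolism fell more often than they rose. The shares that fell were 37.5% in synthesis and desaturation, 42.1% in beta-oxidation and 48% among lipases and fatty acid binding, beside 17.7% of all genes. The shares that rose were 8.33%, 13.2% and 8% in the same order, beside 12.8% of all genes. In fatty acid synthesis and desaturation 9 of 24 genes fell and 2 rose. The 2 that rose were acs-1 and elo-5, an acyl-CoA synthetase and an elongase of monomethyl branched-chain fatty acid synthesis. Levels of acs-1 were 307, 322 and 389 CPM in hif-1 and 755, 668 and 972 CPM in egl-9 hif-1. The double mutants exceeded hif-1 in every library, by 1.23 ± 0.15 (edgeR's adjusted p = 3.06e-05), and acs-1 moved by 1.099 ± 0.15 in egl-9;vhl-1 against vhl-1 but by -0.86 ± 0.15 in egl-9 against N2. For elo-5 the change was 0.78 ± 0.12. The desaturase gene fat-4 fell by 0.39 ± 0.08 and the dehydrogenase gene let-767 fell by 0.45 ± 0.10.

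Of 38 beta-oxidation genes 16 fell and 5 rose. The 4 with the smallest p-values were daf-22, maoc-1, dhs-28 and acox-1.1, which act together in peroxisomes and shorten the side chains of ascaroside pheromones. The thiolase gene daf-22 measured 54.7, 61.9 and 55.8 CPM in hif-1 and 31.98, 30.0 and 28.1 CPM in egl-9 hif-1. The groups were well apart, with a change of -0.94 ± 0.10 (edgeR's adjusted p = 8.73e-06). The change was -0.70 ± 0.09 for maoc-1, -0.94 ± 0.13 for dhs-28 and -0.79 ± 0.11 for acox-1.1. Of 25 lipase and fatty acid binding genes, 12 fell and 2 rose, and 8 to 10 fell and 1 or 2 rose when a library was left out. The lysosomal lipase gene lipl-1 fell from 143, 169.5 and 114 CPM to 35.5, 16.9 and 43.6 CPM, a change of -2.15 ± 0.43 (edgeR's adjusted p = 0.00127), and N2 held 22.8 ± 8.94 CPM (SD, n = 3). Its relative lipl-2 fell by 1.77 ± 0.36, whereas the triglyceride lipase gene atgl-1 rose by 0.34 ± 0.07.

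Many detoxification genes fell. Of 36 glutathione S-transferases tested, 18 fell, which is 50% beside 17.7% of all genes, with a median of -0.63. The level of gst-5 was 121, 132 and 114 CPM in hif-1 and 39.3, 43.6 and 50.2 CPM in egl-9 hif-1. These groups were far apart, at -1.46 ± 0.13 (edgeR's adjusted p = 6.85e-07), and N2 lay near the double mutant at 56.5 ± 7.4 CPM (SD, n = 3). Of 52 cytochrome P450 genes 21 fell (40.4%, beside 17.7% of all genes) and 3 rose (5.77%, beside 12.8%). The count of those that rose was 5 without hif-1 replicate 2. The P450 gene cyp-36A1, known to act downstream of HIF-1, went from 19.2, 21.3 and 14.8 CPM to 6.35, 4.31 and 4.16 CPM, a change of -1.91 ± 0.18, against 2.63 ± 0.17 with hif-1 present. The xenobiotic-induced P450 gene cyp-35A3 fell from 116, 92.9 and 66.7 CPM to 21.8, 21.1 and 25.2 CPM, a change of -2.02 ± 0.23. Of 60 UDP-glucuronosyltransferases, which attach sugar to foreign compounds, 12 fell and 7 rose (4 without hif-1 replicate 2), shares of 20% and 11.7% that are close to those of all genes, with ugt-22 at -0.99 ± 0.13 and ugt-32 at 1.71 ± 0.25. Of 20 superoxide dismutases, catalases and peroxiredoxins 0 rose and 3 fell, close to the 17.7% of all genes that fell.

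Immune effectors fell more than they rose. Of 44 tested, 17 fell (38.6%, beside 17.7% of all genes) and 4 rose (9.09%, beside 12.8%). The median was -0.49, and 19 further genes of the list had no count in the 6 libraries. The gene dod-24, induced by pathogens, measured 127, 139 and 141 CPM in hif-1 and 41.8, 53.6 and 38.9 CPM in egl-9 hif-1. The double mutants were lower throughout, with a change of -1.601 ± 0.11 (edgeR's adjusted p = 3.14e-08). The lysozyme gene lys-1 fell from 373, 363 and 359 CPM to 189, 166.5 and 177 CPM, a change of -1.04 ± 0.08 (edgeR's adjusted p = 1.10e-07). N2 held 175 ± 14.8 CPM (SD, n = 3), within the range of the double mutant. The saposin-like gene spp-8 fell by 1.29 ± 0.14. Of 107 C-type lectins, which bind sugars, 33 fell (30.8%) and 9 rose (8.41%). Among the 4 with the smallest p-values, 2 rose, clec-87 by 0.71 ± 0.08 and clec-88 by 0.69 ± 0.09. Of 5 tested epidermal antimicrobial peptide genes 2 fell (40%), nlp-27 at -1.09 ± 0.15 and nlp-24 at -0.95 ± 0.19. In the kynurenine pathway of tryptophan breakdown 5 of 9 fell (55.6%), among them acsd-1 at -0.71 ± 0.18. The count was 1 to 4 when a library was left out.

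Genes of protein synthesis and turnover changed by small amounts. Of 69 cytosolic ribosomal protein genes 9 fell, with a median of -0.22, a share of 13.04% that is below the 17.7% of all genes. That count was 1 without egl-9 hif-1 replicate 3, 2 without hif-1 replicate 2 or 3, 4 without hif-1 replicate 1, 16 without egl-9 hif-1 replicate 1 and 22 without egl-9 hif-1 replicate 2. Of 33 proteasome genes 8 rose (24.2%, beside 12.8% of all genes) and 1 fell (3.03%, beside 17.7%). The beta subunit gene pbs-7 rose from 122, 128 and 127 CPM to 163, 172 and 149 CPM, a change of 0.36 ± 0.07 (edgeR's adjusted p = 9.21e-04). The proteasome count of genes that rose was 19 without egl-9 hif-1 replicate 3, 3 without egl-9 hif-1 replicate 1, and 5 without egl-9 hif-1 replicate 2 or hif-1 replicate 1. Among 15 genes of the insulin pathway and its daf-16 targets 3 rose and 5 fell, or 3 fell without hif-1 replicate 2 or egl-9 hif-1 replicate 3. With all libraries that is 20% and 33.3% of the list, beside 12.8% and 17.7% of all genes. The insulin receptor gene daf-2 rose from 81.04, 91.8 and 88.6 CPM to 127, 126 and 146 CPM, a change of 0.61 ± 0.09 (edgeR's adjusted p = 1.27e-04). The catalase gene ctl-2, a daf-16 target, fell by 0.78 ± 0.12. Of 5 tested pud genes 2 fell (40%, beside 17.7% of all genes), pud-3 at -1.39 ± 0.35 and pud-4 at -1.296 ± 0.28.

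**Figure D2:**
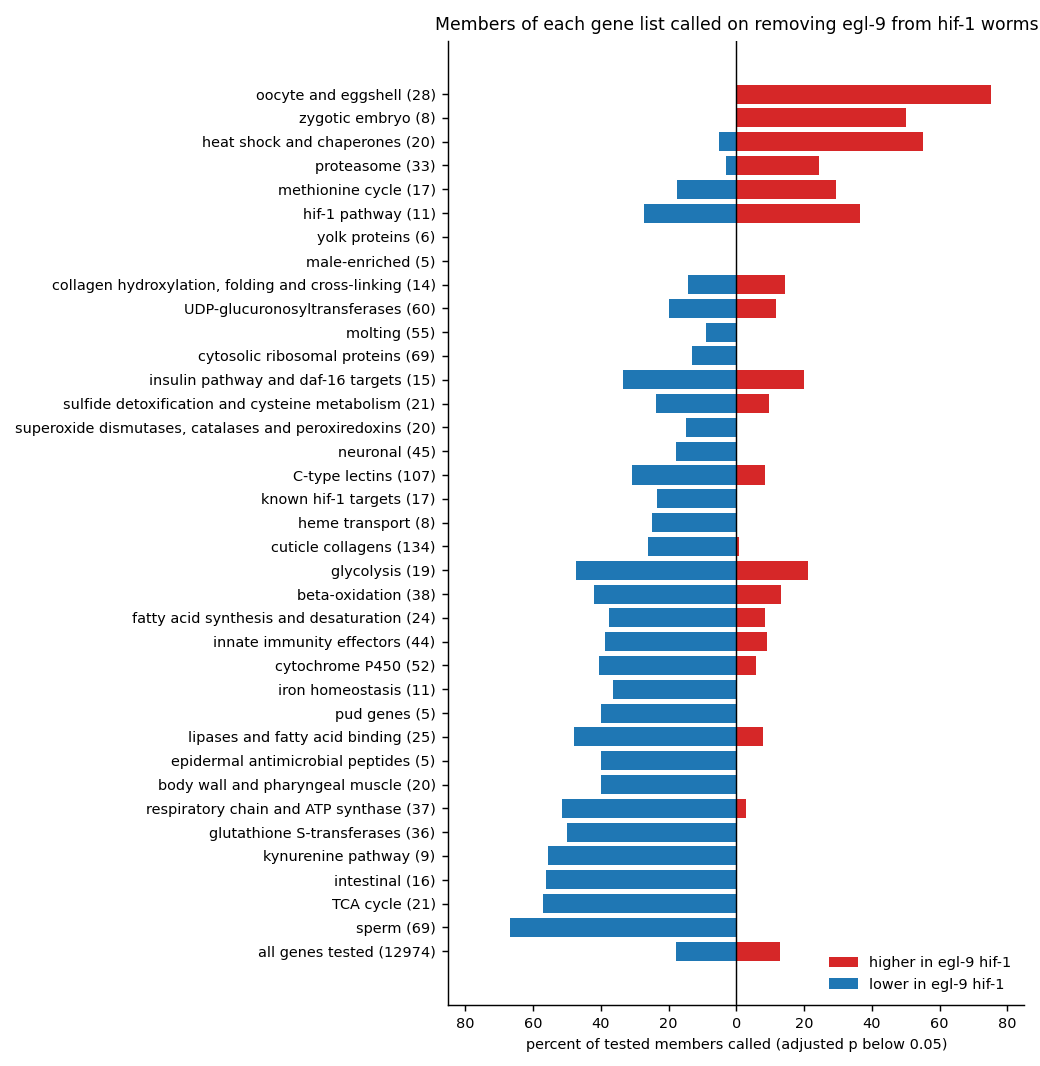
Percent of the tested members of each gene list (number tested in brackets) that rose (red, to the right) or fell (blue, to the left) in egl-9 hif-1 against hif-1, at an adjusted p below 0.05. Oocyte and eggshell genes show 21 of 28 raised and sperm genes 46 of 69 lowered, beside 12.8% raised and 17.7% lowered among all genes.

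Reproductive genes moved in opposite ways, oocyte genes up and sperm genes down. Of 28 oocyte and eggshell genes 21 rose, which is 75% beside 12.8% of all genes, with a median of 0.42. The oocyte maturation gene oma-1 measured 162, 156 and 144 CPM in hif-1 and 228, 234 and 224 CPM in egl-9 hif-1. The groups did not overlap, and the change was 0.57 ± 0.08 (edgeR's adjusted p = 6.59e-05). The eggshell chitin synthase gene chs-1 rose by 0.76 ± 0.11 and the eggshell proteoglycan genes cpg-2 and cpg-3 by 0.58 ± 0.08 and 0.63 ± 0.09. Of 8 zygotic embryo genes 4 rose (50%, beside 12.8% of all genes), or 2 without egl-9 hif-1 replicate 2. Among these vet-2 went from 2.64, 5.2 and 3.23 CPM to 8.14, 11.1 and 7.68 CPM, a change of 1.297 ± 0.24, and sdz-28 had 2 counts over the hif-1 libraries and 26 over the double mutants, a ratio of 12.4 (95% exact interval 3.11 to 107.8, counting error only). The 6 yolk protein genes gave no changed member and a median of 0.27.

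Of 69 sperm genes 46 fell, which is 66.7% beside 17.7% of all genes, with a median of -0.66. The sperm phosphatase gene gsp-3 measured 183, 285 and 299.8 CPM in hif-1 and 126, 122 and 135 CPM in egl-9 hif-1. The double mutants were lower, with a change of -1.003 ± 0.21 (edgeR's adjusted p = 0.00168), and hif-1 replicate 1 lay closer to them than the other two hif-1 libraries. The major sperm protein gene msp-56 fell from 243, 369.7 and 387 CPM to 193, 183 and 187 CPM, a change of -0.83 ± 0.18. Major sperm protein genes are near-identical copies, so their single values are uncertain. The count of sperm genes that fell was 13 without hif-1 replicate 3, 17 without hif-1 replicate 2, 23 without egl-9 hif-1 replicate 3, 28 without egl-9 hif-1 replicate 1 and 48 without hif-1 replicate 1. In egl-9;vhl-1 against vhl-1 46 of the 69 fell as well, and in egl-9 against N2 11 fell and 1 rose. Among all genes 10% fell in the former comparison and 11% in the latter. In whole worms, fewer cells of a type and less RNA per cell cannot be told apart. The 5 tested male-enriched genes gave no changed member.

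Cuticle collagens separated the hif-1 libraries from each other. Of 134 collagen genes 35 fell and 1 rose, with a median of -0.72, where 95 rose and 14 fell in egl-9 against N2. The 35 that fell are 26.1% of the list, beside 17.7% of all genes. In egl-9 against N2, 14.7% of all genes rose and 11% fell. The mean log2 CPM of the list, relative to N2, was 1.35, 0.13 and 1.14 in hif-1 replicates 1 to 3 and lay between -0.15 and -0.07 in egl-9 hif-1. So hif-1 replicate 2 stood near the double mutants and the other two hif-1 libraries stood above them. The 8 genes with the largest falls were 6 collagens, grl-16 and Y47D7A.15, and they show the same. The hedgehog-related gene grl-16 held 101, 1.11 and 29.1 CPM in hif-1 and 0, 0.945 and 0.961 CPM in egl-9 hif-1. For the collagen gene col-120 the values were 56.5, 1.61 and 33.7 CPM and 0.839, 1.16 and 1.17 CPM. The change was -6.04 ± 1.94 for grl-16 (edgeR's adjusted p = 0.025) and -4.84 ± 1.398 for col-120 (edgeR's adjusted p = 0.0141), and both calls were lost without hif-1 replicate 1. The call of grl-16 was also lost without any 1 of the egl-9 hif-1 libraries. The changes were -5.92 ± 1.604 for col-156, -4.84 ± 1.69 for col-97, -4.82 ± 1.42 for col-161, -4.09 ± 1.15 for col-157, -3.93 ± 1.39 for col-14 and -4.32 ± 1.23 for Y47D7A.15. Of these, col-156, col-157 and Y47D7A.15 lost the call without hif-1 replicate 1 and col-161 without egl-9 hif-1 replicate 2. The calls of col-97 and col-14 were lost without any library but hif-1 replicate 2, and also with the replicate number as a block. The count of collagens that fell was 14 to 20 when any library but hif-1 replicate 2 was left out, and 36 without that one.

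Other collagens fell evenly in all libraries. The adult collagen gene col-19 measured 1569, 1986 and 2087 CPM in hif-1 and 739.9, 880.3 and 977 CPM in egl-9 hif-1. The groups did not overlap and differed by -1.12 ± 0.12 (edgeR's adjusted p = 7.70e-06). The adult collagen gene col-20 fell from 4018, 5168 and 5121 CPM to 1344, 1863 and 2359 CPM, a change of -1.36 ± 0.16. The prolyl hydroxylase gene phy-3 fell by 0.94 ± 0.18, one of 2 that fell and 2 that rose among 14 genes of collagen hydroxylation, folding and cross-linking. On that list 28.6% were changed, close to the 30.6% of all genes, and 0 to 3 rose and 1 to 3 fell when a library was left out. Of 55 molting genes 5 fell, below the 17.7% of all genes, and the count was 0 to 2 when any library but hif-1 replicate 2 was left out. The summed level of the whole molting list, tested or not, lay between 721.1 and 736.3 CPM in hif-1. It lay between 656 and 687.8 CPM in egl-9 hif-1, and 5 genes of the list had no count in these libraries. The mean log2 CPM of the tested members, relative to N2, was 0.43, 0.055 and 0.37 in hif-1 replicates 1 to 3. In egl-9 hif-1 that mean lay between -0.13 and -0.09. The part of differences in stage between libraries in the collagen and molting values was not tested.

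Some markers of tissues fell. Of 16 intestinal genes 9 fell, which is 56.25% beside 17.7% of all genes, with a median of -0.45. The cysteine protease gene cpr-1 went from 519.9, 788 and 625 CPM to 296, 209 and 268 CPM, a change of -1.32 ± 0.16 (edgeR's adjusted p = 1.91e-05). The intestinal filament gene ifb-2 and the gut esterase gene ges-1 changed by -1.05 ± 0.16 and -1.05 ± 0.17. The summed intestinal level lay between 9752 and 11330 CPM in hif-1, between 7549 and 8380 CPM in egl-9 hif-1 and between 8085 and 8514 CPM in N2. Of 20 muscle genes 8 fell (40%), with the troponin genes tnt-2, unc-27 and tni-3 at -0.59 ± 0.07, -0.62 ± 0.08 and -0.73 ± 0.09. Of 45 neuronal genes 8 fell (4 without egl-9 hif-1 replicate 1, 5 without egl-9 hif-1 replicate 3 or hif-1 replicate 3), close to the 17.7% of all genes, with the neuropeptide convertase gene egl-3 at -0.54 ± 0.10. Intestinal genes moved together with the immune, lipase and detoxification genes, many of which are used in the intestine, and the part of the amount of intestine in those results was not tested.

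**Figure D3:**
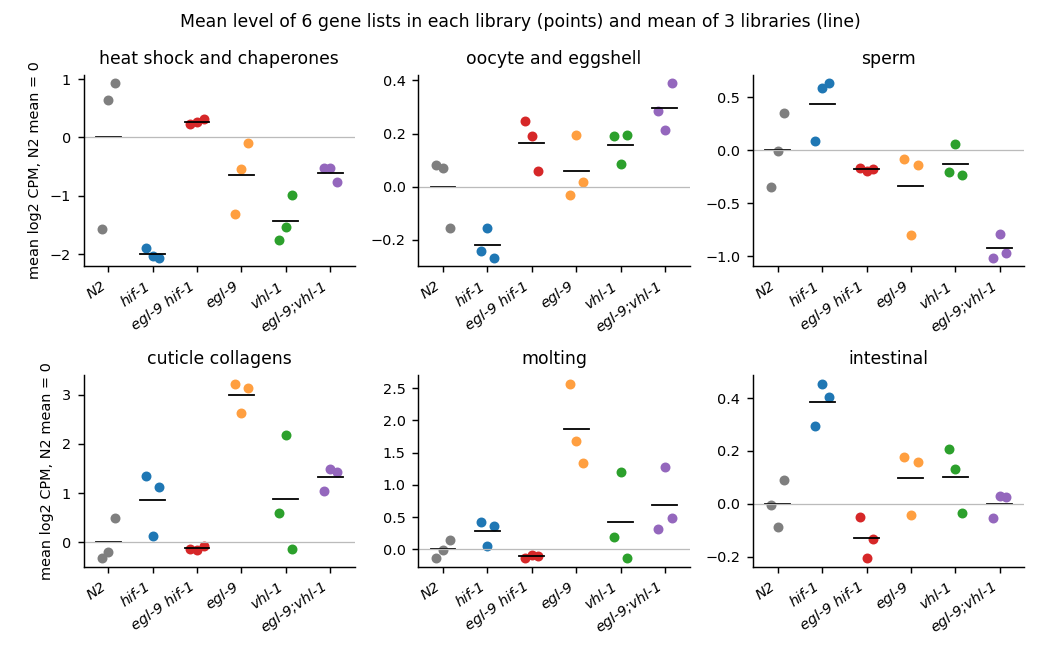
Mean log2 CPM of the tested members of 6 gene lists in each library of 6 genotypes (points; 0.2 CPM added, N2 mean set to 0), with the mean of 3 libraries as a line. The egl-9 hif-1 libraries lie close together, between 0.24 and 0.32 for heat shock genes and between -0.15 and -0.07 for collagens, while N2 replicate 1 and hif-1 replicate 2 stand apart from the other libraries of their genotype on those lists.

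The removal of egl-9 was then set beside the same removal in 2 backgrounds with hif-1 intact, which share no library with it or with each other. In egl-9 against N2, 3344 genes were changed (25.8%), and 772 of them had changed in the same direction without hif-1, which is 23.1% of that list and 19.5% of the 3965. Another 417 had changed in the opposite direction. Of the genes that fell without hif-1, 20.03% also fell in egl-9 against N2, where 11% of all genes fell, and 14.04% rose, where 14.7% of all genes rose. Of the genes that rose without hif-1, 18.7% also rose there and 5.65% fell. In egl-9;vhl-1 against vhl-1, 2233 genes were changed (17.2%), and 1019 had changed in the same direction without hif-1, which is 45.6% of that list and 25.7% of the 3965. There, 34.3% of the genes that fell without hif-1 fell too, against 10% of all genes, and 13.8% of those that rose also rose, against 7.18% of all genes. Across the 12974 genes the log2 changes without hif-1 had a Pearson correlation of -0.25 with those in egl-9 against N2 and of 0.22 with those in egl-9;vhl-1 against vhl-1, as a description over genes that are not independent.

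**Figure D4:**
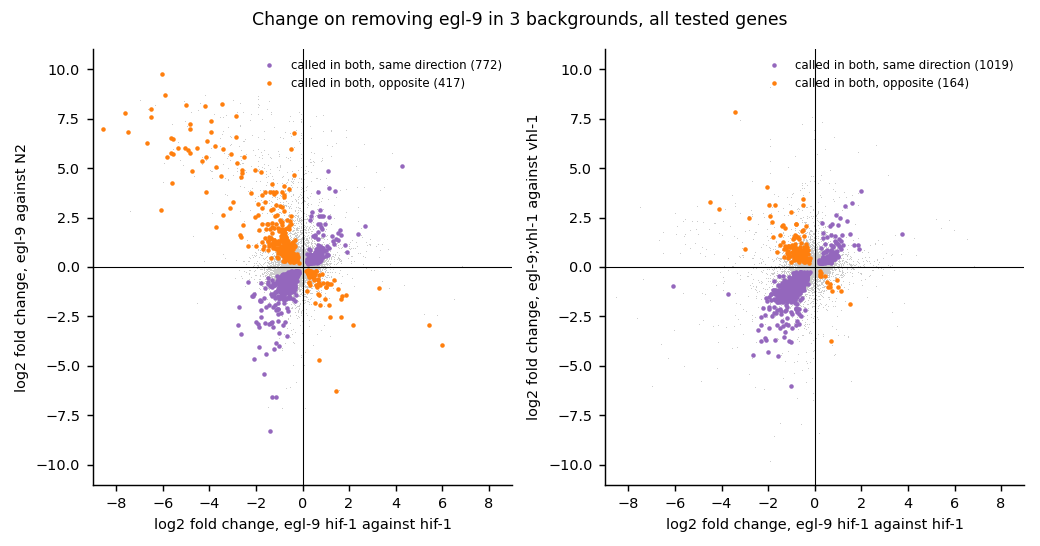
Log2 fold change of each tested gene in egl-9 hif-1 against hif-1 (horizontal) and in egl-9 against N2 or egl-9;vhl-1 against vhl-1 (vertical); grey points are all genes and coloured points were called in both comparisons. Genes called in opposite directions number 417 in the first panel, most at the upper left, and 164 in the second.

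A set of 333 genes changed in the same direction in all 3 backgrounds, 137 up and 196 down. Among those that fell, asp-8 moved by -2.63 ± 0.17 without hif-1, -3.38 ± 0.20 in egl-9 against N2 and -4.45 ± 0.20 in egl-9;vhl-1 against vhl-1. The change of cyp-35A3 was -2.02 ± 0.23, -2.79 ± 0.26 and -4.28 ± 0.32 in the same order. The GTP cyclohydrolase gene cat-4, needed to make dopamine and serotonin, held 29.3, 27.5 and 32.4 CPM in hif-1 and 12.7, 13.02 and 11.4 CPM in egl-9 hif-1. All 3 double-mutant libraries were less than the lowest hif-1 library, at -1.26 ± 0.13 (edgeR's adjusted p = 5.87e-06), beside -2.05 ± 0.13 and -3.28 ± 0.14 in the other two backgrounds. The dihydropyrimidine dehydrogenase gene dpyd-1, which breaks down pyrimidines, moved by -0.90 ± 0.10, -0.75 ± 0.10 and -1.01 ± 0.10. The values were -0.99 ± 0.13, -1.08 ± 0.13 and -1.19 ± 0.13 for ugt-22 and -0.56 ± 0.07, -0.62 ± 0.07 and -0.54 ± 0.07 for exc-15, a gene of the excretory canal. For these 2 genes and dpyd-1 the test of the difference between the changes without and with hif-1 gave edgeR's adjusted p = 0.769, 0.703 and 0.465. The remaining 2 genes named by the rule were col-8 at -1.08 ± 0.16 and C18H9.6 at -1.58 ± 0.21, each with a larger fall in egl-9 against N2, at -2.12 ± 0.17 and -4.40 ± 0.26.

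Among those that rose in all 3, cpg-3 moved by 0.63 ± 0.09, 0.66 ± 0.09 and 0.42 ± 0.09. The microtubule regulator gene rmd-1 held 829.6, 853 and 732 CPM in hif-1 and 1152, 1188 and 1269 CPM in egl-9 hif-1, with no overlap. Its changes were 0.58 ± 0.08, 0.42 ± 0.08 and 0.41 ± 0.08. The chromosome cohesion gene ctf-8 changed by 1.004 ± 0.11, 0.55 ± 0.10 and 0.51 ± 0.10, and its change was larger without hif-1 by 0.46 ± 0.15 (edgeR's adjusted p = 0.0347). The other members named by the rule were Y48G1A.2, K08F4.3, T05F1.2, pif-1 and C27F2.9, which rose by 0.35 to 0.73 without hif-1.

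**Figure D5:**
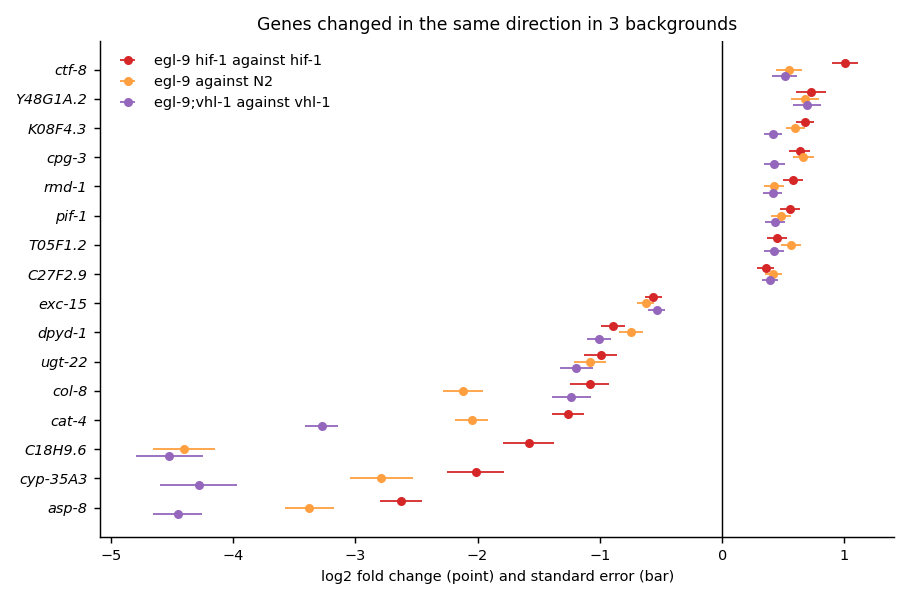
Log2 fold change (point) and standard error (bar) of the 16 genes named among the 333 that changed in the same direction on removing egl-9 from hif-1 (red), N2 (orange) and vhl-1 (purple) worms. Raised genes lie within a narrow range in all 3 backgrounds, whereas asp-8, cyp-35A3, C18H9.6 and cat-4 lie further from 0 in the 2 backgrounds with hif-1 than in the one without.

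The changes themselves differed between worms without and with hif-1 for 2871 genes, 22.1% of those tested, by the interaction of the 2 removals in the same fit. The genes with the smallest p among those changed in opposite directions were pck-1, rips-1, dod-24, nhr-57, mpst-3 and F01D5.1. The gluconeogenesis gene pck-1 measured 38.4, 45.8 and 42.7 CPM in hif-1 and 28.3, 29.9 and 27.9 CPM in egl-9 hif-1. It fell by 0.56 ± 0.08 (edgeR's adjusted p = 6.87e-05), and rose by 3.92 ± 0.08 in egl-9 against N2, from 79.3 ± 4.84 to 1203 ± 19.6 CPM (SD, n = 3 each). The mercaptopyruvate sulfurtransferase gene mpst-3 moved by -0.36 ± 0.11 without hif-1 and 4.64 ± 0.12 with it, and F01D5.1 by -1.32 ± 0.13 and 4.18 ± 0.15. The call of mpst-3 without hif-1 was lost without hif-1 replicate 2 or 3 or egl-9 hif-1 replicate 1 or 3. The gene dod-24 moved by -1.601 ± 0.11 and 3.81 ± 0.11. For the heat shock genes hsp-70 and hsp-16.41 the change with hif-1 was -1.65 ± 0.92 and -3.92 ± 1.19. That comparison uses N2 replicate 1, which stood apart for those 2 genes. The egl-9 libraries in it also differed, with 9.39, 21.7 and 53.2 CPM of hsp-70 in replicates 1 to 3.

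Position on the chromosomes was looked at last. The egl-9 gene lies on chromosome V from 10468517 to 10476915 and hif-1 on the same chromosome from 20780407 to 20785260, in the WBcel235 annotation. Within 1 Mb of egl-9, 105 of 319 tested genes were changed, or 32.9%, and within 1 Mb of hif-1 it was 18 of 94, or 19.1%, beside 30.6% of all genes. By chromosome the share ran from 23.4% on X to 34.2% on I, with 30.0% on V. The changed genes near egl-9 with the smallest p were lys-1, acs-14, cat-4 and T21C9.13. The acyl-CoA synthetase gene acs-14 fell from 82.6, 86.3 and 100.5 CPM to 45.8, 45.4 and 42.9 CPM, a change of -1.01 ± 0.09, and T21C9.13 rose by 0.72 ± 0.09. For genes close to egl-9, linked differences between the strains and the loss of egl-9 cannot be told apart.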

How the data were processed

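RNA was measured in 21 libraries of 7 genotypes. Per the submitters' processing notes, bcl2fastq 1.8.4 and kallisto were used; no kallisto version, build or transcript set is named there. The authors deposited, for 32905 transcripts per library, estimated counts (66.6% within 1e-06 of whole) and TPM values; the deposited TPM were not used in a test. SmartSeq2 libraries do not mark the strand, so overlapping antisense genes are not separated. Transcripts were matched to Ensembl 115 (WBcel235), 28369 by transcript name and 4229 by sequence name, leaving 307 transcripts with at most 0.127% of a library's counts. Estimated counts were summed per gene and rounded. A set of 97 symbols is shared by several gene identifiers.

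Genes were tested with edgeR 4.0.16 (R 4.3.3, quasi-likelihood F-test, TMM, expression filter at a minimum count of 10) in 1 fit of all 21 libraries with genotype as the only term, and p-values were adjusted by Benjamini-Hochberg over the 12974 genes. The fit had 14 residual degrees of freedom and a common biological coefficient of variation of 0.15. Changes are log2 fold changes, and each standard error was derived from the F statistic of its test. The procedure was tested on simulated counts. DESeq2 1.42.0, other size factors, filters, thresholds, single transcripts, a replicate block and left-out libraries were tried as alternatives.

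The comparison and the 36 gene lists were chosen with earlier results of these data known, and 15 list entries matched no gene name. Named genes were egl-9 and hif-1; the 12 raised and 12 lowered genes with the largest change among those called, with a mean of at least 10 CPM and separate groups; up to 4 members per list with the smallest p; up to 8 per direction changed alike in all 3 backgrounds; 6 changed in opposite directions; 4 near egl-9; and 4 per direction with the smallest p. Promoter sequences were not analysed here. Counting intervals cover counting error only.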

Additional observations from a re-analysis of the deposited data

Results flagged for a closer look

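The change on removing egl-9 differed between worms without and with hif-1 for 2871 genes by the interaction term. Of the 123 gene identifiers named in the text, 86 were among them. The values that follow are the log2 change without hif-1 minus that with hif-1.

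Among heat-inducible genes the difference was 8.18 for hsp-70, 9.90 for hsp-16.41, 8.24 for hsp-16.1, 8.36 for hsp-16.2, 7.64 for each of the pair named hsp-16.48, 5.31 for F44E5.4 and 4.83 for F44E5.5. N2 replicate 1, 1 of the 3 N2 libraries in that contrast, held 1.97 CPM of hsp-70 where the other two held 126.0 and 138.7 CPM. Other genes that led the rises without hif-1 differed by 3.66 (pgph-3), 3.27 (Y69A2AR.12), 2.09 (gpdh-1) and 2.06 (fig-1).

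Cuticle-related genes, which were high in egl-9, differed by -15.79 (grl-16), -14.63 (col-156), -12.07 (col-97), -11.82 (col-120), -10.74 (col-14), -10.60 (col-161) and -10.47 (col-157), and Y47D7A.15 by -9.67. For fmo-2, which had 0 counts in the double mutants, the fitted difference of -11.37 depends on the prior count.

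Genes called as falling without hif-1 and rising with it also included the regulators and targets egl-9 (-2.67), cysl-1 (-3.08), nhr-57 (-6.49) and rips-1 (-7.15). By DESeq2 the falls of nhr-57 and rips-1 without hif-1 were not called. Among metabolic genes the difference was -4.48 for pck-1, -5.0 for mpst-3, -1.6 for cbs-1, -1.65 for pcca-1, -2.04 for ldh-1, -1.96 for aldo-1 and -1.11 for gpd-2. Immune, intestinal and other genes of this kind were irg-5 (-6.06), dod-24 (-5.41), lys-1 (-1.89), cpr-1 (-3.35), ifb-2 (-1.52), cyp-36A1 (-4.53), hrg-9 (-3.07), T08B6.9 (-4.29) and F01D5.1 (-5.51). Genes called as rising without hif-1 and falling with it were, beside hsp-16.41 and hsp-16.2, hsp-90 at 1.13, metr-1 at 0.91, acdh-1 at 2.57, acs-1 at 2.1, ugt-32 at 3.19, pbs-7 at 0.63 and farl-11 at 0.78.

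Some genes changed in the same direction in all 3 backgrounds and still differed in size. Of these, C18H9.6 (2.82), col-8 (1.04), cat-4 (0.78), cth-1 (1.33) and fpn-1.2 (2.95) fell less without hif-1, and spp-8 (-0.63) and gst-5 (-0.91) fell more. In the same class, ctf-8 (0.46) rose more and ethe-1 (-2.39) rose less. The genes pud-3 (6.92) and pud-4 (5.28) fell less without hif-1 than with it, and asb-2 (-0.36) fell more.

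The remaining genes were called without hif-1 but not with it. Those that fell were adh-1 (-2.52), col-19 (-0.92), col-20 (-1.05), phy-3 (-1.15), nlp-27 (-0.78), nlp-24 (-1.26), ctl-2 (-0.93), hsp-6 (-0.66), the mitochondrial ND1 (-0.99), aco-2 (-0.29), maoc-1 (-0.96), dhs-28 (-0.88), acox-1.1 (-0.62), acs-14 (-0.88), acsd-1 (-0.79), gsp-3 (-0.82), egl-3 (-0.49), unc-27 (-0.42) and ges-1 (-1.07). Those that rose were tads-1 (1.11), sna-1 (0.54), pir-1 (0.59), cul-2 (0.37), elo-5 (0.85), oma-1 (0.52) and cpg-2 (0.46).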

How the results depend on the processing

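The count of 3965 changed genes was 2777 to 4129 when 1 library was left out, 2327 when transcripts were tested 1 by 1 and 2100 at an adjusted p below 0.01. DESeq2 gave 3868 and RLE size factors 4002. Over all tested genes the library numbers do not pair the hif-1 and egl-9 hif-1 samples. Same-numbered libraries of these groups correlated at 0.01, -0.01 and 0.06, and the fit with the replicate number as a block gave 3833. For egl-9 against N2 (3344) the count was 2613 to 3500 with a library left out, 2189 with only the genotypes compared, 2215 by transcript and 2179 below 0.01. For egl-9;vhl-1 against vhl-1 (2233) it was 1539 to 2334, with 1369 by transcript and 1209 below 0.01. The 2871 interaction calls were 2292 to 3312, with 1625 below 0.01. The 772 genes changed alike with and without hif-1 were 552 to 908, and 458 with only the genotypes compared, 339 by transcript, 319 below 0.01 and 1184 below 0.10. The 333 changed alike in all 3 were 238 to 461, and 126, 110 and 555 under the last 3 of these. Of 4388 values of named genes under the alternatives, 4182 kept their direction and side of the threshold, 206 lost the call and 0 reversed. That total includes left-out libraries of other genotypes, which enter the comparison only through the shared fit. Leaving out 1 of the 6 libraries compared lost the call of 12 to 24 of 176 genes, and testing transcripts 1 by 1 lost 39. RLE shifted the median gene by 0.03.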

Other observations

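Transcripts of the mitochondrial genome were lower in egl-9 hif-1 than in hif-1, a group chosen after its values were seen. Of 10 tested genes, 9 fell and 0 rose by edgeR's quasi-likelihood test, beside 17.7% of all genes that fell. The calls of MTCE.26 and MTCE.31 were lost with only the genotypes compared and without egl-9 hif-1 replicate 3. That of MTCE.26 was also lost without hif-1 replicate 3, and that of MTCE.31 without replicate 1 of either genotype. The complex I gene ND1 measured 373, 239 and 233 CPM in hif-1 and 109, 128 and 90.9 CPM in egl-9 hif-1. The groups did not overlap, and the log2 change was -1.37 ± 0.17 (edgeR's adjusted p = 3.06e-05). The cytochrome oxidase gene COX3 had 1236, 1066 and 1081 CPM and then 651, 687 and 541 CPM, a change of -0.85 ± 0.12. The gene without a call, ND6, moved by 0.11 ± 0.15. In egl-9 against N2 the change was -0.38 ± 0.16 for ND1 and -0.72 ± 0.12 for COX3. These genes fell beside nuclear genes of the TCA cycle and respiratory chain and beside hsp-6, and their part in each other was not tested.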
